A study of Mus musculus with 6 samples.

Results

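The interleukins and their receptors were followed in epididymal white adipose tissue (eWAT) of mice that lack Mettl14 in adipocytes. Members were all genes of the deposited expression table whose symbol is Il followed by a digit, and 77 of 21361 genes met this rule. They comprise 31 ligands, 38 receptor chains, 6 decoys or inhibitors, and 2 others, namely the enzyme gene Il4i1 and Il1bos, a transcript antisense to Il1b. RNA-seq was done on 6 male mice fed a high fat diet (HFD) and fasted overnight, 3 per genotype, and each library came from a separate mouse. Mettl14f/f mice carry floxed alleles of Mettl14, are given as wild type in the genotype label, and served as controls. Mettl14Δfat mice carry the same floxed alleles and adiponectin-Cre, which acts in adipocytes, so macrophages, lymphocytes, endothelium and the other cells of the fat pad keep the gene. Mice were 8 weeks old when the diet began, and the diet lasted 16 weeks by the protocol and 20 weeks by the design text. The comparison addresses how loss of adipocyte Mettl14, a subunit of the enzyme that writes N6-methyladenosine (m6A) on RNA, bears on the cytokine system of obese fat.

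Interleukins are secreted proteins through which immune, stromal and parenchymal cells signal to each other, usually at low concentrations. Most act on receptors built from a private chain that binds the ligand and a shared chain that signals: the common gamma chain for the IL-2 group, gp130 for the IL-6 group, IL1RAP for the IL-1 group, and IL17RA for the IL-17 group. The first pair signal through JAK kinases and STAT factors, and the last pair through adaptor proteins to NF-kB. Antagonists and decoy receptors limit this signaling. In obese fat, macrophages collect around dying adipocytes and are a known source of interleukins, whereas IL-4, IL-13, IL-33 and IL-10 are tied to the alternatively activated macrophages, innate lymphoid cells and regulatory T cells of lean fat.

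Values are FPKM (fragments per kilobase of transcript, scaled to the size of the library). Unless called deposited, they were scaled between libraries, and they are given as mean ± SD of 3 mice. Without scaling, the median log2 fold change over all genes tested was 0.15, and with it 0.01, so changes are relative to this shift of 0.138. Mettl14 itself was 5.35, 5.01 and 5.81 in the Mettl14f/f libraries and 4.21, 4.12 and 4.27 in the Mettl14Δfat libraries (log2 fold change -0.295 ± 0.0658 SE, adjusted p = 0.0108, limma). Adipocyte marker genes had sums of 8140 to 11200 in controls and of 10700 to 15400 in Mettl14Δfat mice, most of it Fabp4, and of 12 such genes 4 were higher, 1 was lower and 7 did not pass. Macrophage markers summed to 11300 to 12400 and 4670 to 8580, and 11 of 16 were lower and none higher (limma; 12 and none at an unadjusted p under 0.05). All 10 endothelial markers were higher, with sums of 194 to 243 and 392 to 442. No T and NK cell marker passed in 11 tested by limma (3 higher and none lower at an unadjusted p under 0.05), with sums of 21.4 to 44.6 and 30.9 to 49.7. Germ line transcripts of males were found in Mettl14Δfat replicates 1 and 2 (sums of 168 and 258, against 0.419 to 1.16 in the other 4 libraries), as were epithelial markers (47.8 and 80.7 against 2.54 to 5.58, a list written after the data were seen). In bulk tissue, fewer cells of a type and less RNA per cell cannot be told apart, and the part of cell makeup in the results that follow was not tested.

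Of the 77 members, 37 reached a mean of 1 deposited FPKM and 40 did not. This level was reached by 26 of 38 receptor chains and 8 of 31 ligands. The 15 members over 10 FPKM were 13 receptor chains, the antagonist Il1rn and a single ligand, Il34, which binds the CSF-1 receptor. Il10rb led with a mean of 90.5 deposited FPKM, followed by Il1rn with 81.7, Il11ra1 with 50.3, Il6st with 47.4, Il3ra with 41.9 and Il7r with 41.3. Nearest to the threshold were Il17rb inside it, with a mean of 1.07, and Il7 outside it, with 0.963.

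**Figure D1:**
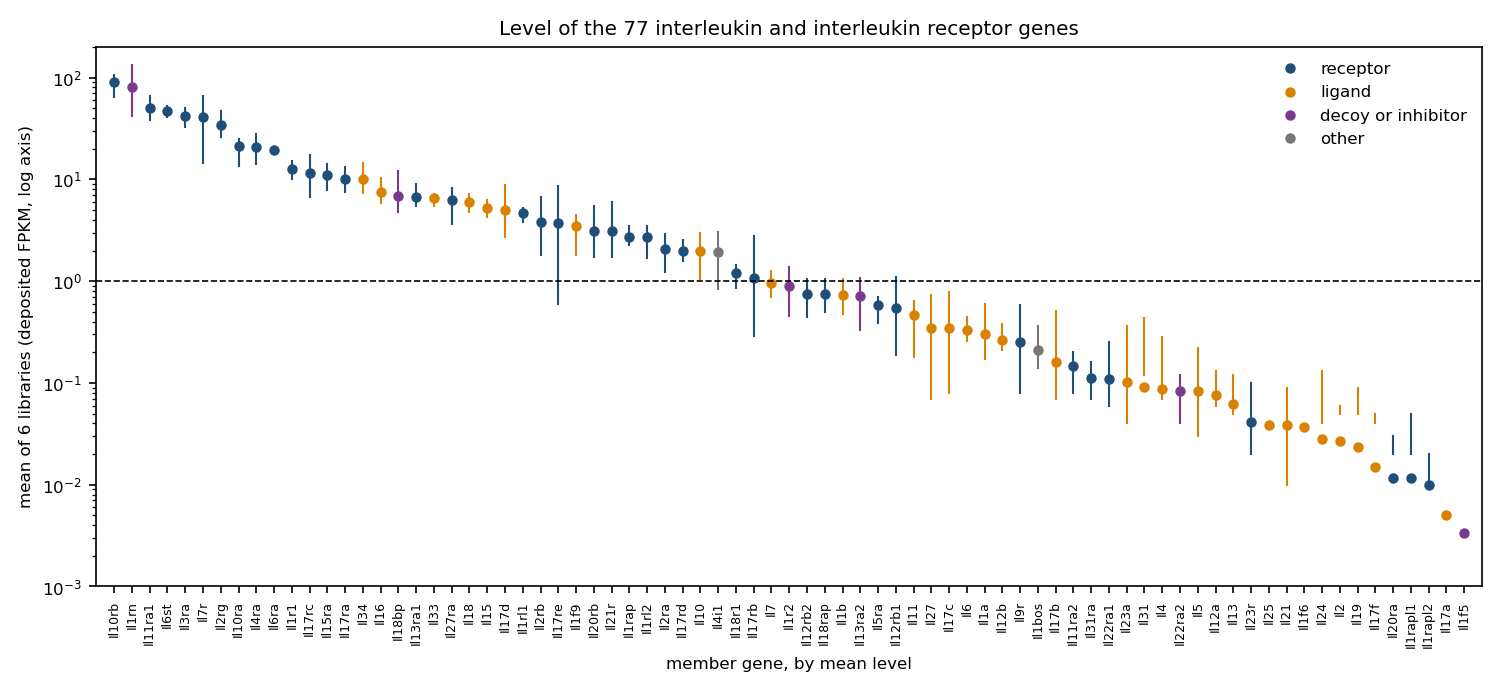
Mean deposited FPKM of each of the 77 members over the 6 libraries (point, log axis) and the range of the libraries above 0 (line), ordered by mean and colored by kind, with a dashed line at 1 FPKM. Receptor chains and Il1rn take 14 of the first 15 places, and most ligands lie under the line.

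Among the 37 members over this threshold, 10 were higher and 9 were lower in Mettl14Δfat eWAT at an adjusted p under 0.05 (limma, adjusted over 12955 genes). These are 27.0% and 24.3% of the members, against 24.8% higher and 24.7% lower over all genes tested, so the members' shares lie near the background of this comparison. The 10 include Il17rb, which reached the threshold only through the Mettl14Δfat libraries. Values of the groups did not overlap for 20 of the 37 (54.1%), against 61.2% of all genes tested. The median log2 fold change was 0.15 over the 37 members and 0.01 over all genes. Without scaling, 15 members were higher and 8 lower, so that 65.2% of the calls were higher in place of 52.6%. Over all genes the unscaled fit called 36.1% higher and 15.2% lower, and 70.4% of its calls were higher. All 19 called members had groups that did not overlap, and an exact permutation test on 3 against 3 mice gave its smallest p, 0.1, for each of them and for Il13ra1. On the fitted log2(scaled FPKM + 1) scale, only Il7r, Il1rn and Il17re differed by 1 or more. As ratios of means, Il17rb, Il20rb and Il17d were 4.78-, 2.03- and 2.00-fold higher.

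**Figure D2:**
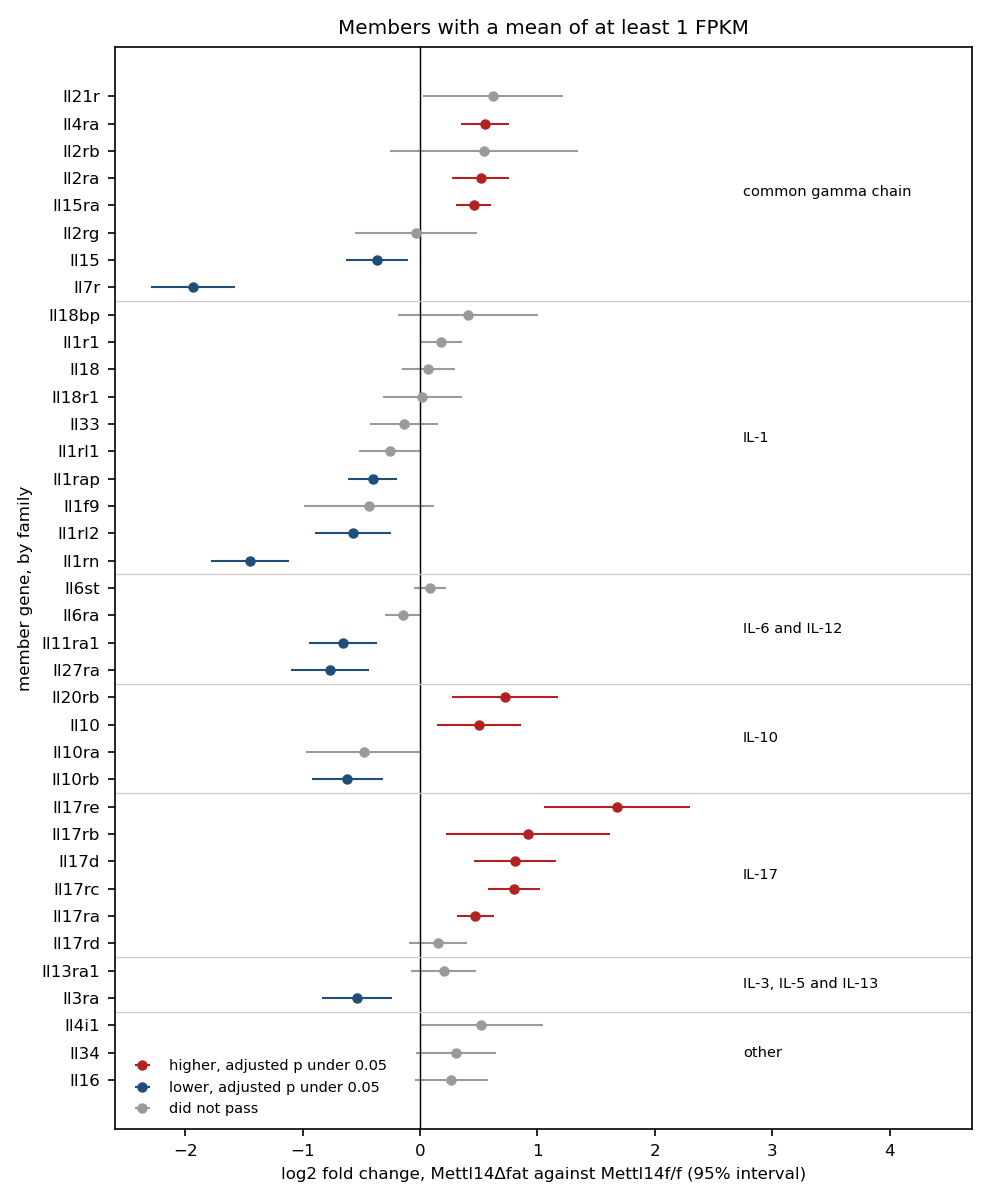
Log2 fold change (Mettl14Δfat against Mettl14f/f, log2(scaled FPKM + 1)) of the 37 members, with 95% intervals from limma, by family. Il7r and Il1rn lie farthest to the left at -1.93 and -1.45, and Il17re farthest to the right at 1.68.

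The common gamma chain group went both ways. Il7r, the private chain for IL-7 and also part of the TSLP receptor, had the largest change of the 37 tested members on the log2(scaled FPKM + 1) scale, although Il17re and Il17rb changed more as ratios of means. It was 67.7, 70.4 and 65.9 FPKM in Mettl14f/f and 17.1, 13.6 and 21.6 in Mettl14Δfat (68.0 ± 2.26 and 17.4 ± 3.98, n = 3). Thus the highest Mettl14Δfat mouse was far below the lowest control, a 3.91-fold lower mean (log2 fold change -1.93 ± 0.15 SE, adjusted p = 0.000327, limma). The fall was present without Mettl14Δfat replicates 1 and 2 (-1.61) and under all 15 alternatives (-2.09 to -1.60). Il2rg, the shared gamma chain itself, was 34.0 ± 3.84 and 34.2 ± 10.8 and did not pass, and its sign turned positive without scaling. The ratio of Il7r to Il2rg was 1.77 to 2.15 in controls and 0.471 to 0.560 in Mettl14Δfat libraries. The coordinates of Il2rg hold a further protein coding gene model, Gm20489, on the same strand, so their reads may be shared. Of the 16 macrophage markers, 11 fell in the same libraries, from Itgax, the CD11c integrin chain (213 ± 13.9 and 42.8 ± 11.4), to Mertk (27.3 ± 3.91 and 19.3 ± 3.36). The other 5, C1qa (619 ± 137 and 648 ± 243), C1qb, C1qc, Csf1r and Fcgr1, did not pass, and the T cell chain Cd3e was 2.14 ± 0.895 and 2.53 ± 0.636.

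Il7r lies on mouse chromosome 15 (positions 9506159 to 9529941, RefSeq, GRCm38.p6). Its promoter and the pair of GGACT matches of its transcript are shown because it fell most among the tested members and because m6A is written on adenosines in this kind of sequence. The promoter covers 250 bases before and 50 after an annotated start (chr15:9529827-9530126, minus strand, RefSeq, GRCm38.p6), which lies inside the gene limits given above. Capitals mark TTCNNNGAA, the palindromic core that STAT factors bind, and ACTTCC, the reverse complement of the ETS and PU.1 core GGAAGT.
Il7r promoter: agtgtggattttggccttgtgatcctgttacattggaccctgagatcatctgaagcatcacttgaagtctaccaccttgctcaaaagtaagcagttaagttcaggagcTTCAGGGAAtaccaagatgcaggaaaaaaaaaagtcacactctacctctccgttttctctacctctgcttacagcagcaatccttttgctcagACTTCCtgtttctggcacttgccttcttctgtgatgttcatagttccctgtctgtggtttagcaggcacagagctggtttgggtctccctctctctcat
Il7r GGACT match in the coding sequence (chr15:9508309-9508333): aaagtttcctGGACTgccagattca
Il7r GGACT match in the 3' UTR (chr15:9506428-9506452): atattctcagGGACTgcatgcaatg
The transcript windows are from GENCODE M21 on GRCm38, on the sense strand, with the motif in capitals. Il7r held 0.565 GGACT matches per kilobase, under the median of 1.06 over the genes searched, of which 92.5% held it. Searched on both strands, TTCNNNGAA was in the promoters of 11 of 60 members (18.3%) with a RefSeq promoter sequence and of 9.55% of 27025 genes, and GGAAGT in 22 of 60 (36.7%) and 26.5%. A match describes letters and no binding or methylation was measured here.

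Other receptors of the gamma chain group rose. Il4ra, which binds IL-4 with the gamma chain and both IL-4 and IL-13 with Il13ra1, was 17.7, 16.1 and 15.2 FPKM in controls and 24.0, 22.4 and 26.7 in Mettl14Δfat mice. The lowest Mettl14Δfat value exceeded the highest control, 1.49-fold on the means (log2 fold change 0.55 ± 0.09 SE, adjusted p = 0.00278, limma). Il15ra, which presents IL-15 to neighbouring cells, was 9.16, 8.37 and 9.32 against 13.3, 12.3 and 12.3 (1.41-fold, adjusted p = 0.00170, limma). Its ligand Il15 moved the other way, from 6.52, 5.67 and 5.88 to 4.02, 4.03 and 5.39 (1.34-fold lower, adjusted p = 0.0324, limma). The Il15 call was the least stable of the 19, lost under 10 of 15 alternatives, including those without any one library except Mettl14Δfat replicate 3, and at an adjusted p of 0.438 with replicate 3 alone. Il2ra, the high affinity IL-2 receptor chain CD25, rose from 1.77, 1.33 and 1.42 to 2.71, 2.39 and 2.64 (1.71-fold, adjusted p = 0.00689, limma), and its adjusted p was 0.0544 with Mettl14Δfat replicate 3 alone. Il2rb, shared by the IL-2 and IL-15 receptors, and Il21r did not pass, at 2.95 ± 1.67 and 4.64 ± 1.75 for Il2rb and 2.11 ± 0.247 and 3.98 ± 1.73 for Il21r. Both were highest in Mettl14Δfat replicate 3. This library had the highest sums of T and NK markers (49.7) and of group 2 innate lymphoid and mast cell markers (437). Mettl14f/f replicate 1 had the next highest T and NK sum (44.6), with Il2rb at 4.88 and Il21r at 2.32. Without Mettl14Δfat replicate 2, Il21r passed, and without Mettl14f/f replicate 1, Il2rb did.

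Among the tested members of the IL-1 family, an inhibitor changed most. Il1rn encodes the IL-1 receptor antagonist, which occupies IL1R1 without signaling, and lies on chromosome 2 (24336860 to 24351491, RefSeq, GRCm38.p6). It was 103, 142 and 125 FPKM in Mettl14f/f eWAT and 44.6, 38.8 and 50.1 in Mettl14Δfat eWAT (123 ± 19.4 and 44.5 ± 5.64, n = 3). The groups were far apart, with a 2.77-fold lower mean in Mettl14Δfat mice (log2 fold change -1.45 ± 0.14 SE, adjusted p = 0.000603, limma), and the fall was -1.27 with replicate 3 alone. Its target receptor Il1r1 was 11.7 ± 0.903 and 13.3 ± 0.820 and did not pass (adjusted p = 0.0850, limma), though it did without scaling and without Mettl14f/f replicate 1. The agonists were low: Il1b was 0.623, 0.515 and 0.785 in controls and 0.817, 0.988 and 0.570 in Mettl14Δfat mice, and Il1a was 0.286 to 0.633 and 0.158 to 0.270. Reads of Il1b and of its antisense transcript Il1bos, at 0.131 to 0.348 FPKM, cannot be told apart where counting ignores strand, which is not stated.

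The accessory chain and the IL-36 receptor were also lower. Il1rap, the co-receptor for IL-1, IL-33 and IL-36, was 3.63, 3.22 and 2.97 in controls and 2.34, 2.13 and 2.22 in Mettl14Δfat mice, without overlap (1.47-fold lower, adjusted p = 0.00922, limma). Il1rl2, the IL-36 receptor, went from 3.52, 3.70 and 3.21 to 1.97, 1.56 and 2.61 (1.70-fold lower, adjusted p = 0.0139, limma). Leaving out Mettl14f/f replicate 2 ended the Il1rl2 call, as did leaving out Mettl14Δfat replicate 1, and with replicate 3 alone the adjusted p was 0.0889 for Il1rap and 0.114 for Il1rl2. An IL-36 ligand, Il1f9 (IL-36 gamma), was 4.12 ± 0.119 and 2.93 ± 1.31 and did not pass. The IL-33 pair did not pass, with Il33 at 6.86 ± 0.774 and 6.18 ± 1.00 and its receptor Il1rl1 (ST2) at 5.13 ± 0.193 and 4.18 ± 0.772. Il1rl1 and Il1f9 passed, as lower, without Mettl14Δfat replicate 3, and Il33 changed sign without scaling. Il18 was 5.75 ± 0.621 and 6.08 ± 0.582, and its receptor chain Il18r1 was 1.196 ± 0.302 and 1.22 ± 0.135. Il18bp, the secreted inhibitor of IL-18, was 6.27, 5.27 and 5.11 in controls and 7.16, 5.21 and 11.8 in Mettl14Δfat mice. The high value of Il18bp came from Mettl14Δfat replicate 3, and it passed when replicate 2, or replicates 1 and 2, were left out.

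In the IL-6 and IL-12 group, the ligand binding chains Il27ra and Il11ra1 fell, while the ligand binding chain Il6ra and gp130 did not pass. Il27ra, which pairs with gp130 to bind IL-27, was 7.85, 8.75 and 8.13 in controls and 4.66, 3.40 and 5.42 in Mettl14Δfat mice (8.24 ± 0.459 and 4.49 ± 1.02). The groups did not overlap and the mean was 1.83-fold lower (log2 fold change -0.77 ± 0.14 SE, adjusted p = 0.00469, limma). Il11ra1, the IL-11 receptor, was 54.1, 70.1 and 63.7 against 37.8, 35.6 and 44.8 (1.59-fold lower, adjusted p = 0.00547, limma), and its adjusted p was 0.103 with Mettl14Δfat replicate 3 alone. Il11ra1 overlaps other genes, such as Dctn3 on the opposite strand, and may share reads with its near-identical copy Il11ra2 (0.0862 to 0.193 FPKM), so both are uncertain. Il6st, the gp130 chain, was 45.8 ± 1.98 and 48.7 ± 1.53 (log2 fold change 0.09, adjusted p = 0.236, limma), and passed as higher without scaling. Il6ra was 20.5 ± 0.507 and 18.4 ± 1.35 (adjusted p = 0.0959, limma), passed as lower without Mettl14Δfat replicate 3, and changed sign without scaling.

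Il6 itself, which the study also measured by qPCR, was under the threshold in every library. It was 0.332, 0.429 and 0.467 FPKM in Mettl14f/f and 0.244, 0.242 and 0.290 in Mettl14Δfat mice. The 3 Mettl14Δfat values lay below the 3 controls (0.410 ± 0.0695 and 0.259 ± 0.0267), and in a fit with no filter the adjusted p was 0.0621 (limma). The other ligands of this group were low too, and Il12a, Il12b, Il23a and Il27 stayed under 0.8 FPKM in all libraries.

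In the IL-10 group, the shared receptor chain fell while the ligand IL-10 rose. Il10rb, which also serves IL-22 and interferon lambda, was 107, 115 and 110 FPKM in controls and 71.0, 60.2 and 86.1 in Mettl14Δfat mice (1.53-fold lower, log2 fold change -0.62 ± 0.13 SE, adjusted p = 0.00782, limma), with no overlap. Its coordinates hold a further protein coding gene model, Gm21970, on the same strand, so their reads may be shared. The private chain Il10ra was 25.5, 25.1 and 23.7 against 17.3, 12.7 and 24.1 and did not pass (adjusted p = 0.0901, limma), although it did as lower without Mettl14Δfat replicate 3. Il10, the anti-inflammatory cytokine, was 1.87, 1.12 and 1.31 in controls and 2.21, 2.21 and 2.89 in Mettl14Δfat mice (1.70-fold, adjusted p = 0.0294, limma). The Il10 call was lost under 6 of 15 alternatives, at adjusted p values up to 0.0904, which include those without Mettl14f/f replicate 2 or 3 and without Mettl14Δfat replicate 1 or 3. Il20rb, a chain of the IL-19, IL-20 and IL-24 receptors, was 1.89, 1.87 and 2.24 against 4.35, 5.13 and 2.69 (2.03-fold, adjusted p = 0.0187, limma). Its higher values were those of Mettl14Δfat replicates 1 and 2, the libraries with epithelial transcripts, and the call was lost with replicate 3 alone (log2 fold change 0.30, adjusted p = 0.124, limma) and without Mettl14f/f replicate 1 or 2 or Mettl14Δfat replicate 1.

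In the IL-17 group, 6 of 11 members were tested. Of these, 5 were higher, namely 4 of the 5 receptor chains and the ligand Il17d (83.3%, against 24.8% of all genes tested). They include Il17rb, which reached the filter only through the Mettl14Δfat libraries. The median log2 fold change of the 6 members tested was 0.81, against 0.01 over all genes. Il17re, the chain that binds IL-17C, was 1.68, 0.644 and 1.22 FPKM in controls and 6.18, 7.96 and 3.97 in Mettl14Δfat mice (1.18 ± 0.520 and 6.03 ± 2.00). This was the largest rise among the 37 tested members, 5.10-fold on the means (log2 fold change 1.68 ± 0.26 SE, adjusted p = 0.00277, limma). Il17rc, which joins IL17RA to bind IL-17A and IL-17F, was 9.01, 7.27 and 7.74 against 14.0, 16.1 and 13.9 (1.83-fold, adjusted p = 0.00103, limma). Il17ra, the shared chain, was 7.86, 8.26 and 8.37 against 11.3, 11.1 and 12.7 (1.43-fold, adjusted p = 0.00193, limma). These chains differed between the groups without overlap, and Il17rc and Il17ra varied little among mice.

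Il17rb, the IL-25 receptor, was 0.426, 0.333 and 0.308 in controls and 1.87, 2.60 and 0.628 in Mettl14Δfat mice (4.78-fold, adjusted p = 0.0382, limma). All controls were under 1 FPKM, so Il17rb reached the filter only through the Mettl14Δfat libraries. A rise was thus favored by the filter, and the call was lost in the fit with no filter. Il17rb also overlaps Actr8 on the opposite strand. Il17d, whose role is less well defined than that of its relatives, was 3.14, 2.90 and 3.76 against 5.95, 8.17 and 5.50 (2.00-fold, adjusted p = 0.00475, limma). Il17rd, an inhibitory relative, was 1.80 ± 0.186 and 2.11 ± 0.249 and did not pass. Il17re, Il17rb and Il17d were each highest in Mettl14Δfat replicates 1 and 2, as was Il17rc by a small margin (14.0 and 16.1, against 13.9 in replicate 3). In replicates 1 and 2 the epithelial markers Epcam (6.70 and 12.8, against 0.0623 to 0.233 elsewhere) and Krt8 (15.4 and 27.5, against 0.457 to 1.10) were also high. With replicate 3 alone, Il17rc, Il17ra and Il17d kept their calls at log2 fold changes of 0.73, 0.59 and 0.62. Il17re was at 1.21 with an adjusted p of 0.0525 and Il17rb at 0.26 with 0.106 (limma). The Il17rb call was lost under 8 alternatives, including those that left out any one library except Mettl14Δfat replicate 3.

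Il17re (113458699 to 113470758) and Il17rc (113471455 to 113483163) are neighbours on chromosome 6 (RefSeq, GRCm38.p6), with 668 bases between them in GENCODE M21. Their promoters, both on the plus strand and from RefSeq on GRCm38.p6, are shown because the pair rose together. The start used for Il17re lies inside its gene limits given above. Capitals mark GGAAGT on either strand, and Il17re has no match to it or to TTCNNNGAA in these letters.
Il17re promoter (chr6:113458521-113458820): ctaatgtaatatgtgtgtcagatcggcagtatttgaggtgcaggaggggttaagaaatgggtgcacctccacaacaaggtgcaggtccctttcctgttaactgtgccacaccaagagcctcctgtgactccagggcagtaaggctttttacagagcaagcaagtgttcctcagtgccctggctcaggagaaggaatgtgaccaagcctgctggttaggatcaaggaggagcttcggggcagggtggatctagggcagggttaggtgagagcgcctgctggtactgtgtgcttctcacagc
Il17rc promoter (chr6:113471205-113471504): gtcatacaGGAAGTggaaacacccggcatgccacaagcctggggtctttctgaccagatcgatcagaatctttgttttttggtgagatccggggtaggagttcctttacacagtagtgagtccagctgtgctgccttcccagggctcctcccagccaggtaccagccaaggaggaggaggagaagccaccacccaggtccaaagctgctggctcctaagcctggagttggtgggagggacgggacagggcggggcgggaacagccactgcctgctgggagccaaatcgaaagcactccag

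**Figure D3:**
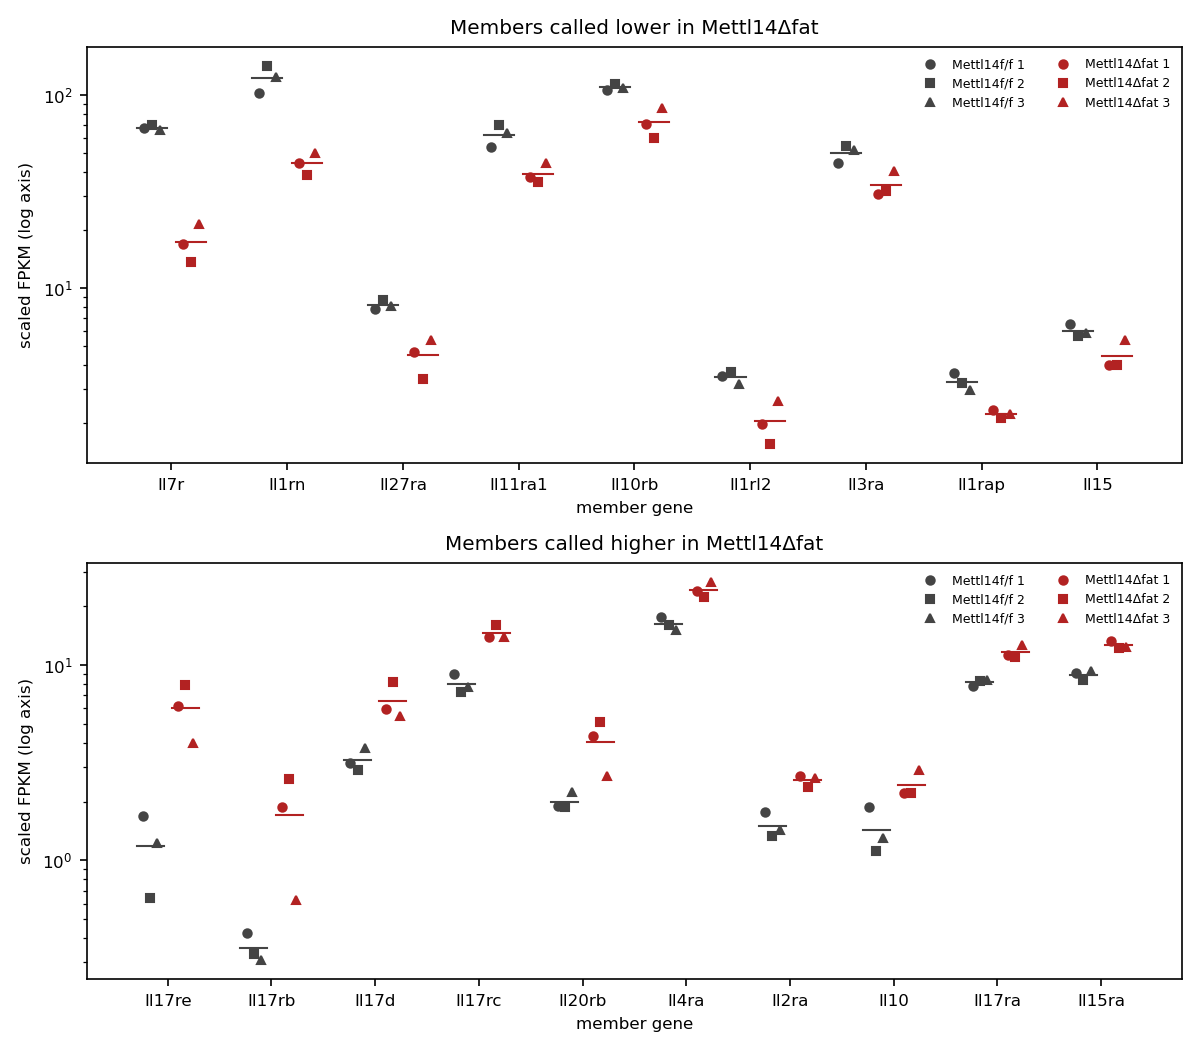
Scaled FPKM (log axis) of the 9 members called lower (top) and the 10 called higher (bottom) in each library, gray for Mettl14f/f and red for Mettl14Δfat, with marker shape for the replicate and a line at the mean. No group pair overlaps, and Il17re, Il17rb, Il17d and Il20rb are higher in Mettl14Δfat replicates 1 and 2 than in replicate 3, as is Il17rc by a small margin.

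Of the receptors for IL-3, IL-5 and IL-13, Il3ra was lower and Il13ra1 did not pass. Il3ra, the IL-3 binding chain, was 44.4, 54.4 and 52.1 in controls and 30.8, 32.1 and 40.4 in Mettl14Δfat mice (1.46-fold lower, adjusted p = 0.0122, limma). The call was lost when only Mettl14Δfat replicate 3 was kept (adjusted p = 0.170, limma), and so too with a germ line covariate (0.0922). Il13ra1 was 6.06 ± 0.181 and 7.18 ± 1.36 (adjusted p = 0.184, limma), and passed as higher with replicate 3 alone. Among the members outside these families, Il34 was 8.76 ± 1.21 and 11.1 ± 2.10, Il16, a ligand of CD4, was 6.72 ± 0.711 and 8.35 ± 1.56, and Il4i1, an amino acid oxidase induced by IL-4, was 1.39 ± 0.528 and 2.42 ± 0.693. None of the 3 passed (1 was higher at an unadjusted p under 0.05, limma). Il34 did pass without Mettl14Δfat replicate 3, Il4i1 without replicate 2, and Il16 without scaling and with the germ line covariate. Il4i1 shares coordinates with Nup62 on the same strand, so their reads may be shared.

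Of the 40 members under a mean of 1 FPKM, 7 reached 1 deposited FPKM in some library, 13 were above 0 in all libraries but never reached it, and 20 were listed at 0 in at least 1 library. Among the 7, Il12rb2, the signaling chain of the IL-12 receptor, was 1.09, 0.955 and 0.998 in controls and 0.573, 0.504 and 0.425 in Mettl14Δfat mice. Il1r2, the IL-1 decoy, was 0.467, 0.794 and 0.700 against 0.939, 1.04 and 1.32, and Il13ra2, the IL-13 decoy, was 0.530, 0.354 and 0.562 against 0.845, 0.858 and 1.04. None of these 3 overlapped between the groups, and in the fit with no filter Il12rb2 (adjusted p = 0.00642) and Il13ra2 (0.0204) passed while Il1r2 (0.0624) did not (limma). Il12rb2 shares coordinates with Serbp1 on the opposite strand. Il7 was 0.955 to 1.07 in controls and 0.676 to 1.17 in Mettl14Δfat mice. Il18rap was 0.537 to 1.08 and 0.620 to 0.975, and Il12rb1 was 0.202 to 0.675 and 0.498 to 1.05, so that these overlapped, as did Il1b.

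The 13 others were Il5ra, Il11, Il27, Il17c, Il6, Il1a, Il12b, Il9r, Il1bos, Il11ra2, Il31ra, Il22ra1 and Il22ra2, between 0.0376 and 0.828 FPKM. Il17c, the ligand of the Il17re product, was 0.260, 0.590 and 0.828 in controls and 0.0751, 0.140 and 0.261 in Mettl14Δfat mice, with a slight overlap. Its coordinates also hold the protein coding gene model Gm20388 on the same strand, so reads may be shared. The 20 listed at 0 in a library were Il2, Il4, Il5, Il12a, Il13, Il17a, Il17b, Il17f, Il19, Il1f5, Il1f6, Il1rapl1, Il1rapl2, Il20ra, Il21, Il23a, Il23r, Il24, Il25 and Il31, and none exceeded 0.476 FPKM. Il23a, Il31, Il25, Il1f6 and Il24 were listed at 0 in all 3 controls. Among the 40, every Mettl14Δfat library was above every control for 7 (17.5%: Il1r2, Il13ra2, Il11, Il17b, Il11ra2, Il23a and Il5) and below for 4 (Il12rb2, Il6, Il1a and Il1rapl2). Over all genes above 0 with a mean under 1 FPKM these shares were 18.9% and 4.17%.

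Several calls were lost without the libraries that held germ line transcripts. With Mettl14Δfat replicate 3 as the only Mettl14Δfat library, 4 members were lower (Il7r, Il1rn, Il10rb and Il27ra) and 8 higher, and 9 of the 19 calls remained. In that fit 10.9% of all genes were higher and 10.1% lower, so fewer calls were made over the whole table too. With the germ line level as a covariate, 6 were lower and 12 higher, and 14 of the 19 remained, against 16.4% higher and 15.8% lower over all genes. Il18bp, Il21r and Il13ra1 were called higher in both. All 19 members kept their direction in both fits. Agreement between these fits, for the 19 or for Il18bp, Il21r and Il13ra1, is not a separate check. The germ line level was low in the controls and in Mettl14Δfat replicate 3. With it as a covariate, the genotype effect therefore rests largely on replicate 3 against the controls. Log2 fold changes were close, as for Il7r (-1.606 with replicate 3 alone, -1.603 with the covariate) and Il4ra (0.6848 and 0.6846).

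**Figure D4:**
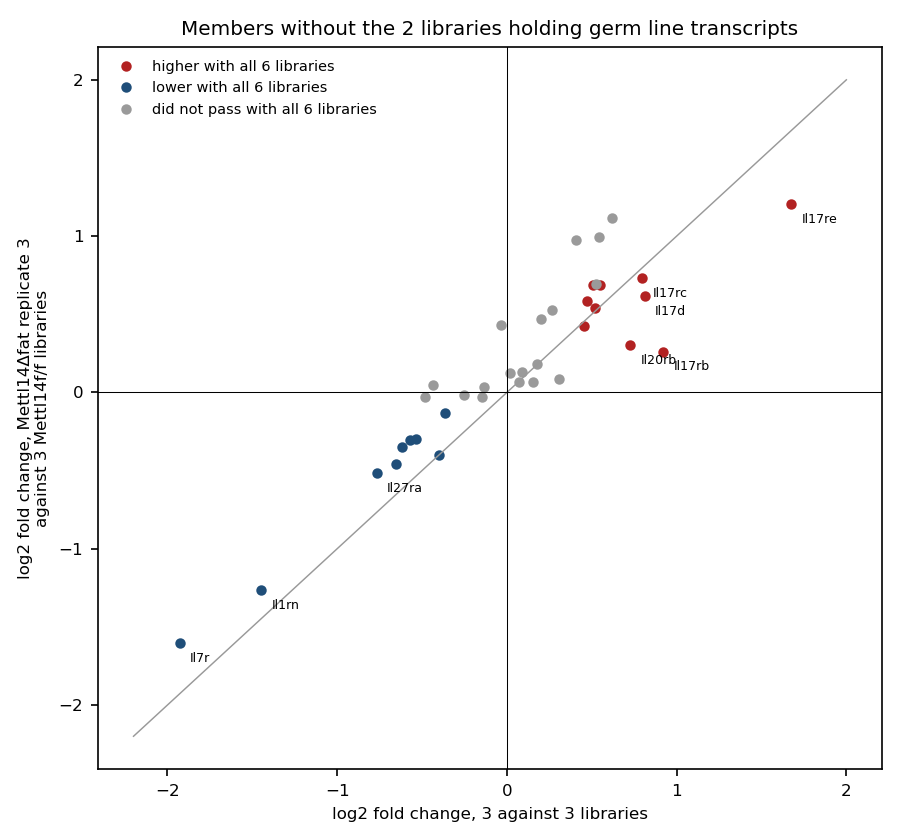
Log2 fold change of the 37 members with 3 against 3 libraries (x axis) and with Mettl14Δfat replicate 3 alone against the 3 controls (y axis), with the line of equality and colors by the call with all 6 libraries. Il7r and Il1rn remain far below 0 (-1.61 and -1.27), while Il17rb and Il20rb move toward 0 (0.26 and 0.30).

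Partner genes of the members were counted too, in lists chosen with earlier results of these data known. Over all genes tested, 24.8% were higher and 24.7% lower. Of 8 tested IL-6 family partners without an Il name, 4 were higher, 1 was lower and 3 did not pass, and the median log2 fold change was 0.38. Cntf, a ligand of this family, rose from 0.481 ± 0.169 to 6.82 ± 0.214, and Lifr, the LIF receptor, from 9.78 ± 1.38 to 20.1 ± 0.816. Cntf, counted among the 4, was under 1 FPKM in all controls. It reached the filter only through the Mettl14Δfat libraries, so a rise was favored by the filter. Of 6 other chains and ligands of the interleukin class, 2 were higher and 4 lower. Tslp, a ligand that signals through Il7r with its own chain, rose from 1.60 ± 0.321 to 5.73 ± 0.760 while Il7r fell, and Sigirr, an inhibitory IL-1 receptor relative, rose from 1.91 ± 0.505 to 4.67 ± 0.664. Csf2ra, the GM-CSF receptor chain, fell from 247 ± 40.7 to 120 ± 28.2, and Csf2rb2, a partner of Il3ra in mice, from 44.0 ± 4.17 to 19.6 ± 4.35.

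Downstream genes showed no single direction across the lists. Counts for the JAK, STAT and SOCS, IL-1 and IL-18 signaling, and IL-17 signaling lists were near or under the shares over all genes. The median log2 fold change was 0.507 for the macrophage response to IL-4 and IL-13 and -0.279 for the inflammasome list, against 0.01 over all genes tested. Of 26 JAK, STAT and SOCS genes, 7 were higher and 4 lower, with Socs3 at 6.35 ± 0.595 and 13.1 ± 3.22, Socs1 at 2.46 ± 0.368 and 5.11 ± 0.343, Stat6 at 66.3 ± 0.829 and 45.6 ± 5.66, and Tyk2 at 17.5 ± 0.694 and 11.9 ± 2.13. Of 12 genes of the macrophage response to IL-4 and IL-13, 6 rose and 1 fell. Mgl2, a lectin of alternatively activated macrophages, rose from 7.76 ± 0.759 to 42.8 ± 5.25, and Ccl24, a chemokine induced by IL-4, from 1.57 ± 0.616 to 10.9 ± 0.600, while the beta-glucan receptor Clec7a fell from 102 ± 6.24 to 39.8 ± 18.5. Stat6, which carries the IL-4 signal, was lower and Il4ra higher in the same libraries.

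Of 9 tested genes of IL-17 receptor signaling and its targets, 2 rose and 1 fell. Lcn2, a known IL-17 target that other cytokines also induce, was 29.2, 15.9 and 13.7 in controls and 183, 199 and 138 in Mettl14Δfat mice, Traf2 was 5.80 ± 0.104 and 7.10 ± 0.205, and Zc3h12a, an RNase that restrains IL-17 signaling, fell from 16.1 ± 1.26 to 9.02 ± 1.12. Of 13 tested inflammasome genes, 5 fell and none rose (6 and none at an unadjusted p under 0.05, limma). Casp1, the protease that matures IL-1 beta and IL-18, fell from 36.3 ± 2.92 to 20.5 ± 6.06 and the DNA sensor Aim2 from 9.37 ± 0.415 to 5.12 ± 1.29. Of 22 genes of IL-1 and IL-18 receptor signaling, 5 rose and 3 fell, with Tab3 (2.10 ± 0.266 and 3.01 ± 0.308) and Tab2 higher and Tollip (34.2 ± 1.64 and 23.5 ± 0.830) and Ikbkb lower. Of 3 tested genes of IL-10 and IL-2 responses and regulatory T cells, Tnfrsf4 (OX40) rose from 1.11 ± 0.0404 to 1.90 ± 0.319.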

How the data were processed

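RNA-seq of eWAT from 3 Mettl14f/f and 3 Mettl14Δfat mice was analysed. The authors deposited FPKM per gene and library, rounded to 2 decimals. Their methods give STAR, HTSeq and DESeq2 as tools, whereas HISAT2, Bowtie2 and RSEM appear beside DESeq2 and mm10 (GRCm38) in the submitters' processing notes, with no versions stated. Another deposited table holds each group's mean signal, a count scaled by the authors, from which 1 FPKM per kilobase of transcript was put at about 22.2 fragments in Mettl14f/f and 19.2 in Mettl14Δfat. Its gene length column, another deposited value, served only for this. Its fold changes and p values were not used. The depth of single libraries is unknown, so no counting intervals are given.

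From the 21362 entries, 1 with no gene name was dropped. FPKM were scaled by a trimmed mean of M values over the 12955 genes whose mean deposited FPKM was 1 or more (30% of ratios and 5% of levels trimmed; factors 0.932 to 1.07). log2(scaled FPKM + 1) was fitted with limma 3.58.1 (R 4.3.3, lmFit, eBayes with trend, two-sided), with Benjamini-Hochberg adjustment over all genes tested. Fold changes on this scale understate those of low genes, and folds in the text are ratios of group means. The plan allowed for a count test, which FPKM do not permit. The procedure was tested on simulated data.

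Members and lists were chosen with earlier results of these data known. Members called at an adjusted p under 0.05 and Il6 are given per library, other tested members by group means, and members under the filter by ranges, with values where a library reached 1 FPKM. From each pathway list, up to 2 called genes per direction with the largest change are named; Itgax, Mertk, C1qa, C1qb, C1qc, Csf1r, Fcgr1, Fabp4, Cd3e, Epcam, Krt8 and Il17c were added after their values were seen. A gene that this rule would name is not reported here. Alternatives were a pseudocount of 0.1, other filters and scalings, a replicate block, a germ line covariate (Prm1, Prm2, Tnp1 and Tnp2), Mettl14Δfat replicate 3 alone, where it is assumed to vary like the controls, and each library left out. Promoters came from RefSeq and transcripts from GENCODE M21.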

Additional observations from a re-analysis of the deposited data

How the results depend on the processing

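Across 15 alternatives, 9 of the 19 called members stayed past the threshold in every fit that tested them, 10 lost it in at least 1, and none changed sign. The number lower was 4 with Mettl14Δfat replicate 3 alone, and leaving out each library in turn gave 7 to 13 lower and 7 to 12 higher. A filter of at least 1 FPKM in every library did not test Il17re and Il17rb. Signs turned for 6 members that had not passed (all log2 fold changes). Il2rg was 0.12 without scaling, 0.43 with replicate 3 alone and 0.44 with the germ line covariate, and -0.26 to 0.18 with single libraries left out. Il33 was 0.003474, 0.034 and 0.045 in the first 3 of these fits, Il1f9 was 0.0501 with replicate 3 alone and 0.0619 with the covariate, and Il6ra was 0.005122 without scaling. Il18r1 was -0.009144 with factors from all genes above 0. With single libraries left out, Il18 ranged from -0.006884 to 0.13 and Il18r1 from -0.0797 to 0.12. The cause was not tested.

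Replicate numbers did not pair the samples: correlations of same-numbered libraries were 0.0393, -0.0931 and -0.129, and not every library correlated best with its own number. With the replicate block, 8 members were lower and 10 higher, and 17 of the 19 calls remained, without Il10 and Il15, while Il4i1 passed as higher (adjusted p = 0.0314, limma). With a pseudocount of 0.1, Il17re (2.29) changed more on the log2 scale than Il7r (-1.98). Genes under 1 FPKM rest on few fragments, and 3 mice per group limit all tests.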

Other observations

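Levels per length can be set against each other within a library, where scaling between libraries has no effect. The antagonist Il1rn exceeded the agonist Il1b 159- to 276-fold in Mettl14f/f libraries and 39.3- to 87.9-fold in Mettl14Δfat libraries, with Il1b under 1 FPKM in all of them. Il1rn to its target receptor Il1r1 was 8.20 to 12.3 and 3.10 to 3.76. The ratio of Il15ra to Il15 was 1.40 to 1.58 in controls and 2.29 to 3.32 in Mettl14Δfat mice, and that of Il6st to Il6ra 2.20 to 2.29 and 2.51 to 2.79. None of these ranges overlapped between the groups, which follows in part from the calls of Il1rn, Il15ra and Il15 in the same libraries. Among all single genes tested, groups did not overlap for 61.2%. The ratio of Il10ra to Il10rb (0.216 to 0.238 and 0.210 to 0.279) and of Il18bp to Il18 (0.849 to 1.04 and 0.941 to 1.96) overlapped.

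The 5 genes outside the members most like Il7r over the 6 libraries were Ids, Med23, R3hdm1, Dennd4c and Cd44, with Pearson correlations of 0.9997 to 0.9993 over libraries that fall into 2 groups. Of these, Cd44, a cell surface hyaluronan receptor, went from 99.4 to 39.4 FPKM.

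The m6A core GGACT, searched on the sense strand of the longest coding transcript (GENCODE M21), occurred at a median of 1.15 per kilobase in the 37 members and 1.06 in 12031 genes tested, and 92.5% of these genes held it. Members called lower had 1.05 and those called higher 0.964. Il1rn had none in 2474 bases, and Il7r had 2 in 3540.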
